A study of Mus musculus with 6 samples.

Results

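Insulin and glucagon set how a hepatocyte handles glucose and lipid, and 9 genes of their signalling pathways were followed here in mouse liver: Insr, Irs1, Irs2, Pik3r1, Akt1, Akt2, Foxo3, Gcgr and Trib1. They were taken by name from the 20894 genes of a count table, but with earlier results of these data known. All 9 had a row and passed the filter on low counts. Both groups came from Irf3LSL-2D mice, in which Cre recombinase switches on an allele for IRF3-2D, a form of the antiviral transcription factor IRF3 made to be constantly active. The IRF3-2D group (3 liver samples) received AAV8-TBG-Cre, an adeno-associated virus that delivers Cre, and the Ctrl group (3 liver samples) received AAV8-TBG-GFP. TBG is a promoter active in hepatocytes, so the allele was switched on in hepatocytes rather than in every liver cell. All mice were given ethanol at 3 g/kg by intraperitoneal injection, and the liver was taken 2 h later. No group went without ethanol, and none had Cre without the allele, so effects of Cre or GFP cannot be told apart from those of IRF3-2D. The age and sex of the mice, their feeding state and their insulin or glucagon levels were not used here.

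As background, insulin binds the receptor encoded by Insr, which phosphorylates the adaptors IRS1 and IRS2. These recruit phosphoinositide 3-kinase, whose main regulatory subunit comes from Pik3r1, and the lipid it makes activates the kinases AKT1 and AKT2. AKT keeps FOXO transcription factors such as FOXO3 out of the nucleus, which lowers the genes of glucose release and also Irs2 itself, a FOXO target. Glucagon acts in the opposite direction: its receptor, encoded by Gcgr, raises cyclic AMP, which activates protein kinase A and the factor CREB. Trib1 encodes a pseudokinase that brings C/EBPalpha to the ubiquitin ligase COP1 for degradation.

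The libraries held 12054096 to 14830629 counts, and 3 counts in a library correspond to 0.194 to 0.252 CPM, the unit of level used here, which is the count scaled to library size. Irf3 itself was 2.41-fold higher in the IRF3-2D libraries (log2 fold change 1.27, SE 0.16, adjusted p = 0.00152 by edgeR), so the labels held. Markers of hepatocytes were abundant in every library, with a summed level of 129636 to 180458 CPM in Ctrl and 69647 to 81655 CPM in IRF3-2D. Of 7 tested hepatocyte markers 6 were called lower, Alb, Apoa1, Apob, Hnf4a, Cps1 and Serpina1a, and 1, Ttr, was called higher, with a median log2 fold change of -0.75. Of all 10802 tested genes 26.3% were called, and the groups did not overlap for 44.9%. Digestive enzymes of the pancreas were present too: the summed level of 9 pancreatic markers was 711, 2971 and 179 CPM in Ctrl replicates 1, 2 and 3 and 1190, 165 and 146 CPM in IRF3-2D replicates 1, 2 and 3. Ins2, which encodes insulin in islet cells, had 36 counts in Ctrl replicate 2 and 1 in IRF3-2D replicate 1, and Ins1 had 10 and 2. Both were at 0 in the other 4 libraries. Gcg, which encodes glucagon, had 1 count in Ctrl replicate 2 and 0 elsewhere. None of the 3 hormone genes was tested. Ctrl replicate 2 and IRF3-2D replicate 1, the library with the most pancreatic RNA in each group, were left out together in an alternative chosen after the data were seen. The 4 libraries kept still held 146 to 711 CPM of these markers, with the highest level in Ctrl replicate 1. Summed Kupffer cell and macrophage markers (11 of 11 with a row) were 411 to 457 CPM in Ctrl and 485 to 694 CPM in IRF3-2D, with no overlap. Of 10 tested, 3 were called higher, Cd5l, C1qa and C1qb, and none lower (30%, near the 26.3% of all tested genes). Endothelial markers (10 of 11 with a row) were 357 to 389 CPM in Ctrl and 249 to 339 CPM in IRF3-2D, with no overlap either. Of 8 tested with TMM scaling, 3 were called lower, Kdr, Oit3 and Ehd3, and none higher (37.5%). Adipocyte markers were 21.8 to 31.2 CPM in Ctrl and 12.9 to 16.04 CPM in IRF3-2D, with no overlap. Of 4 tested, 2 were called lower, Adipoq and Fabp4 (50%). Stellate cell markers overlapped between the groups (319 to 384 and 265 to 354 CPM). Some markers with a row were hardly or unevenly counted. The macrophage marker Cd68 had at most 2 counts in a library and Csf1r 0 to 388, and the endothelial marker Stab1 had at most 4. The part of other cells in the results was not tested.

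Of the 9 genes, 1 was called higher in IRF3-2D liver (Irs1) and 3 were called lower (Pik3r1, Akt2 and Foxo3), at an adjusted p under 0.05 with edgeR's quasi-likelihood test. That is 44.4% of the genes, where 26.3% of all 10802 tested genes were called, 13.2% higher and 13.1% lower. The values of the groups did not overlap for 6 of the 9, with Irs1 and Irs2 higher and Pik3r1, Akt2, Foxo3 and Gcgr lower. Among all tested genes the groups did not overlap for 44.9%, with 23.7% higher and 21.2% lower. The changes were modest, from 2.52-fold lower for Pik3r1 to 1.75-fold higher for Irs2, whose difference was not called. In a whole-liver sample, fewer cells of a type and less RNA per cell cannot be told apart. The labels number the samples without naming separate mice, so p-values measure only the spread between samples, which may be technical.

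**Figure D1:**
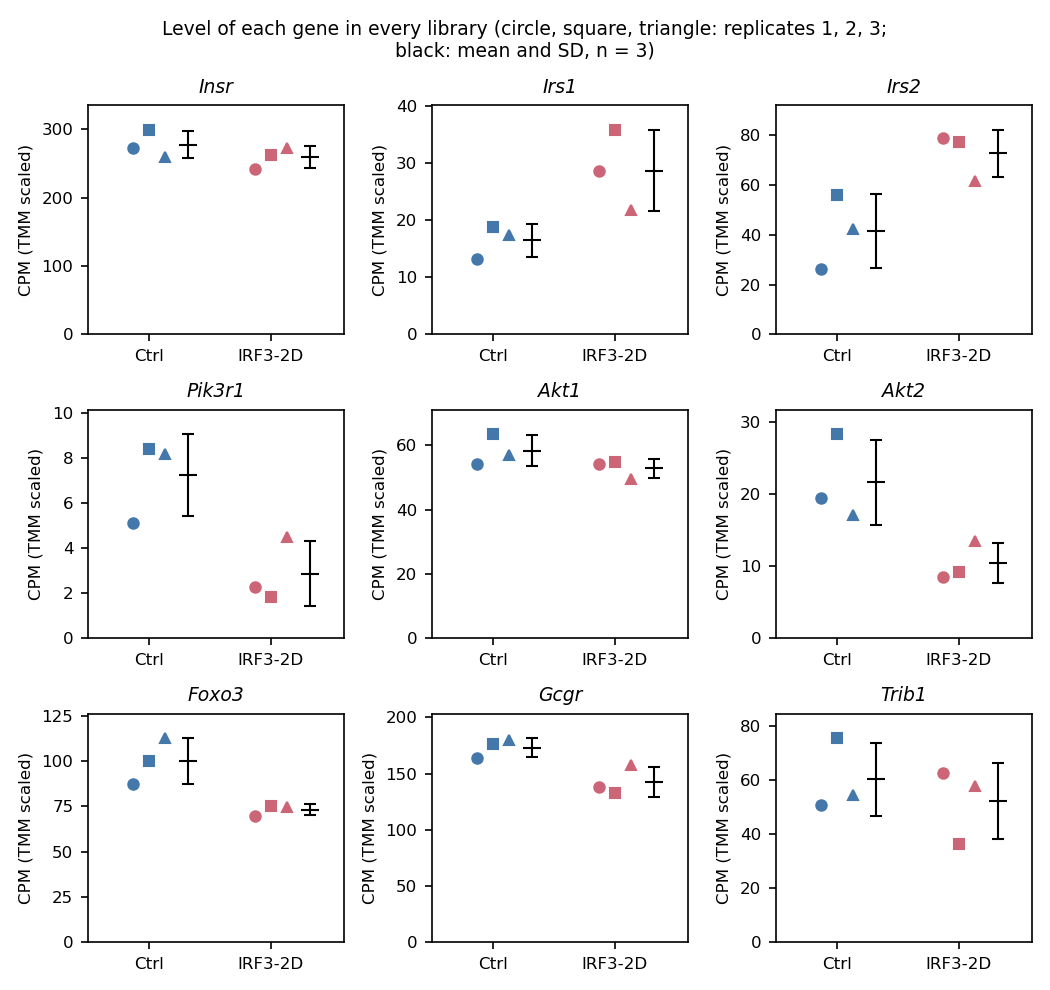
Level of each of the 9 genes in CPM with TMM scaling (y axis, linear, from 0) in the 3 Ctrl and the 3 IRF3-2D libraries (x axis). Circles, squares and triangles are replicates 1, 2 and 3, and the black bar is the mean with its SD. Irs1 and Irs2 sit higher in all 3 IRF3-2D libraries, Pik3r1, Akt2, Foxo3 and Gcgr lower, while Insr, Akt1 and Trib1 overlap.

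These calls depended on the scaling and on which libraries were kept. Counts were scaled by TMM, which sets the bulk of genes equal, and with library totals alone the median of all tested genes moved from 0.03 to 0.49 on the log2 scale. Under that scaling 4 of the 9 genes were called higher (Insr, Irs1, Irs2 and Akt1) and none lower, where 4497 of all tested genes were called higher and 571 lower. Measured against the median of all tested genes, however, the 9 differences moved by at most 0.014 between both scalings. When IRF3-2D replicate 1 or 2 was left out edgeR called 0 of the 9 genes, although 5 had an unadjusted p under 0.05 each time. It called 1 gene without Ctrl replicate 2, 1 without Ctrl replicate 3, 3 without Ctrl replicate 1 and 5 without IRF3-2D replicate 3. Without both libraries richest in pancreatic RNA it called 0 as well, and 4 had an unadjusted p under 0.05. DESeq2 called 2 higher and 4 lower on all libraries, and limma-voom 2 higher and 3 lower.

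**Figure D2:**
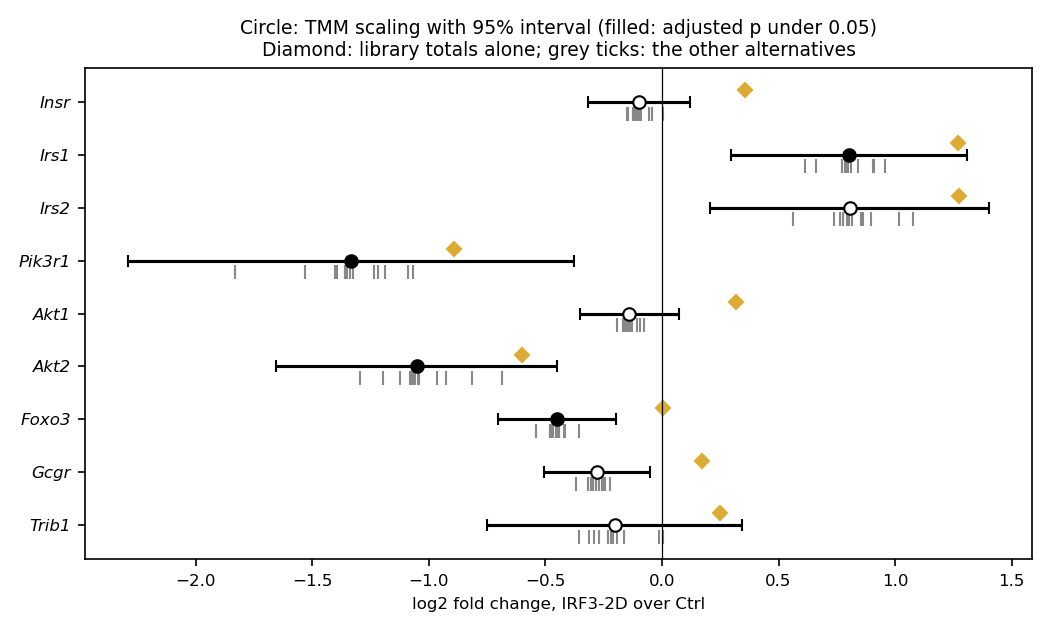
Log2 fold change of each gene, IRF3-2D over Ctrl (x axis), by gene (y axis). Circles give the value with TMM scaling and its unadjusted 95% interval, filled where the adjusted p was under 0.05, diamonds the value with library totals alone, and grey ticks the other alternatives. Diamonds lie to the right of the circles by about the same distance for all 9 genes, and Irs1 and Irs2 lie right of 0, and Pik3r1 and Akt2 left of 0, under every alternative drawn.

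The 2 hormone receptors were the most abundant of the 9 transcripts and were not called. Insr (ENSMUSG00000005534, chromosome 8, 3122061 to 3279617, GENCODE M21 on GRCm38), the insulin receptor, stood at 273, 299 and 260 CPM in the Ctrl libraries and at 242, 263 and 273 CPM in the IRF3-2D libraries. The groups overlapped, and the log2 fold change was -0.10 (SE 0.09, 95% interval -0.32 to 0.12, adjusted p = 0.482 by edgeR). With library totals alone it was 0.36 and called (adjusted p = 0.0149), which is still under the median of all tested genes in that setting, and it was 0.01 without both libraries richest in pancreatic RNA. Gcgr (ENSMUSG00000025127, chromosome 11, 120530699 to 120538986), the glucagon receptor, stood at 164, 176 and 180 CPM in Ctrl and at 138, 132 and 158 CPM in IRF3-2D. All 3 IRF3-2D values were under all 3 Ctrl values, yet the difference was not called with edgeR (log2 fold change -0.28, SE 0.10, 95% interval -0.51 to -0.05 unadjusted, adjusted p = 0.0743). DESeq2 called it lower (adjusted p = 0.0222), as did edgeR without IRF3-2D replicate 3 (log2 fold change -0.37, adjusted p = 0.0389), and with library totals alone the log2 fold change was 0.17.

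Both receptor substrates lay higher in IRF3-2D liver, though only Irs1 was called. Irs1 (ENSMUSG00000055980, chromosome 1, 82233101 to 82291416), the adaptor for both insulin and IGF1 receptors, stood at 13.2, 18.8 and 17.4 CPM in Ctrl and at 28.6, 35.8 and 21.8 CPM in IRF3-2D. It rose 1.74-fold (log2 fold change 0.80, SE 0.21, adjusted p = 0.0322 by edgeR), with no overlap between the groups and IRF3-2D replicate 3 closest to Ctrl. Irs2 (ENSMUSG00000038894, chromosome 8, 10984681 to 11008458), the adaptor known for its swings between fasting and feeding, stood at 26.5, 56.1 and 42.2 CPM in Ctrl and at 78.9, 77.3 and 61.8 CPM in IRF3-2D. The groups did not overlap, Ctrl replicate 1 was the lowest library, and the difference narrowly missed the threshold (log2 fold change 0.80, SE 0.25, adjusted p = 0.0552 by edgeR). The call of Irs1 was lost when any 1 library except IRF3-2D replicate 3 was dropped (0.61 to 0.91) and without both libraries richest in pancreatic RNA (0.91). Irs2 was called with DESeq2, limma-voom, library totals alone or a filter at a mean count of 50, and also when Ctrl replicate 2 was dropped, which gave a log2 fold change of 1.08. Dropping Ctrl replicate 1 gave 0.56 with no call. Each gene has 1 annotated coding transcript.

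The promoters of both substrates are shown because the transcripts lay higher together. The 250 bases before the RefSeq start of each gene (GRCm38.p6) follow, Irs1 at chr1:82291440-82291689 and Irs2 at chr8:11008930-11009179, both on the minus strand and written 5′ to 3′ along the gene. Capitals mark matches to CACGTG (an E-box), TGTTTTG (a form of the insulin response sequence that FOXO factors bind) or TGACG (the short CREB site, read as CGTCA on the other strand), in Irs1 with the first run of capitals holding all 3 in overlap.
Irs1: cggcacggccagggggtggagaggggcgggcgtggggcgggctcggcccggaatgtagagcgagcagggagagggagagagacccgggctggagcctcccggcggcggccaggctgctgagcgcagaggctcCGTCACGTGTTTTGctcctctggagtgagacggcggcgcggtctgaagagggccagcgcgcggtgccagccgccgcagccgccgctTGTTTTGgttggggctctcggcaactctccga
Irs2: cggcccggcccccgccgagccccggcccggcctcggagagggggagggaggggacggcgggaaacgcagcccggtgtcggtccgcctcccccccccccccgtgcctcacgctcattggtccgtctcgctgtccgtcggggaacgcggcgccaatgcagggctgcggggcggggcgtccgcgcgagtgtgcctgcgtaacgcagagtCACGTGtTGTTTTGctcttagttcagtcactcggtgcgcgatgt
In both windows an E-box is followed by TGTTTTG, starting 115 and 111 bases before the start site in Irs1 and 44 and 37 bases before it in Irs2. CACGTG occurred in 7.15% and TGTTTTG, on either strand, in 6.28% of 32851 RefSeq promoter windows of 300 bases, and both with starts at most 20 bases apart in 19 windows, or 0.0578%. Those 19 windows belonged to 16 genes, and 3 of these were receptor substrates: Irs1, Irs2 and Irs4. The last had no count in any library. Of the 5 other tested genes among the 16, 1 was called higher, 1 was called lower and 3 were not called. This pair of motifs was picked after the sequences were seen, and a match is a description, not a bound site. Of the other motifs searched, GTAAACA (FOXO) occurred in 1 of the 12 windows found for 7 of the 9 genes (3.65% of all windows), TGACGTCA (CREB) in none (1.79%), its short form TGACG in 5 (20.8%) and the IRF motif in none (3.44%), counting both strands.

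Downstream of the substrates, Pik3r1 and Akt2 fell and Akt1 was not called. Pik3r1 (ENSMUSG00000041417, chromosome 13, 101680563 to 101768217), which encodes the regulatory subunit of phosphoinositide 3-kinase, had only 63, 100 and 105 counts in Ctrl and 35, 27 and 69 in IRF3-2D, or 5.15, 8.41 and 8.21 CPM against 2.26, 1.83 and 4.52 CPM. It was 2.52-fold lower (log2 fold change -1.33, SE 0.41, adjusted p = 0.0494 by edgeR), with no overlap between groups. The gene has 4 annotated coding transcripts. Its call was lost with library totals alone (-0.89), with no filter on low counts (-1.32), when Ctrl replicate 2 or 3 (-1.22 and -1.24) or IRF3-2D replicate 1 or 2 (-1.19 and -1.09) was dropped, and without both libraries richest in pancreatic RNA (-1.07).

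Akt2 (ENSMUSG00000004056, chromosome 7, 27591552 to 27640826), the AKT isoform known to carry the metabolic signal of insulin in liver, stood at 19.5, 28.3 and 17.1 CPM in Ctrl and at 8.54, 9.21 and 13.6 CPM in IRF3-2D. It fell 2.07-fold (log2 fold change -1.05, SE 0.26, adjusted p = 0.0230 by edgeR), and all 3 IRF3-2D libraries lay under all 3 Ctrl libraries. Akt1 (ENSMUSG00000001729, chromosome 12, 112653821 to 112674884), the more widely expressed isoform, stood at 54.0, 63.4 and 57.1 CPM in Ctrl and at 54.1, 54.7 and 49.5 CPM in IRF3-2D. These groups overlapped (log2 fold change -0.14, SE 0.09, 95% interval -0.35 to 0.07, adjusted p = 0.301 by edgeR), and with library totals alone Akt1 was called higher at 0.32. Akt2 shares 15.8% of its 31-base words with other genes, mainly the pseudogene Akt2-ps, so the placement of its reads is less certain than for the other 8 genes, which share at most 0.504%. Its call was lost with library totals alone (-0.60), when Ctrl replicate 2 (-0.81) or IRF3-2D replicate 1 or 2 (-0.93 and -0.96) was dropped, and without both libraries richest in pancreatic RNA (-0.69), one of which, Ctrl replicate 2, had its highest level.

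Foxo3 fell and Trib1 was not called. Foxo3 (ENSMUSG00000048756, chromosome 10, 42181841 to 42276755), a transcription factor of the fasting state held back by AKT, stood at 87.0, 99.9 and 113 CPM in Ctrl and at 69.7, 75.2 and 74.4 CPM in IRF3-2D. The IRF3-2D libraries lay close together and under every Ctrl library. The difference was 1.37-fold (log2 fold change -0.45, SE 0.11, adjusted p = 0.0217 by edgeR) but 0.01 on the log2 scale with library totals alone, where it was not called. The call was also lost when Ctrl replicate 2 or 3 (-0.45 and -0.36) or IRF3-2D replicate 1 or 2 (-0.42 and -0.47) was dropped, and without both libraries richest in pancreatic RNA (-0.42). Trib1 (ENSMUSG00000032501, chromosome 15, 59648350 to 59657099) stood at 50.6, 75.5 and 54.6 CPM in Ctrl and at 62.7, 36.4 and 57.7 CPM in IRF3-2D. Its groups overlapped in part, with IRF3-2D replicate 2 under and Ctrl replicate 2 over all libraries of the other group, and its spread was wide in both (log2 fold change -0.20, SE 0.23, 95% interval -0.75 to 0.34, adjusted p = 0.561 by edgeR).

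Ratios of 2 genes within a library do not depend on scaling, and 4 were compared. The Akt2 to Akt1 count ratio was 0.362, 0.447 and 0.300 in Ctrl and 0.158, 0.168 and 0.274 in IRF3-2D, a difference of -0.91 on the log2 scale. All 3 IRF3-2D values were lower (exact two-sided permutation p = 0.1, the smallest that 3 against 3 can give, and 0.133 adjusted over the 4 ratios). The Irs2 to Irs1 ratio was 2.01, 2.98 and 2.42 in Ctrl and 2.76, 2.16 and 2.84 in IRF3-2D. It overlapped between the groups and differed by 0.07 on the log2 scale (exact permutation p = 0.8), so the ratio of the substrates was not shown to move while both levels were higher. The Gcgr to Insr ratio was 0.599, 0.588 and 0.692 in Ctrl and 0.570, 0.503 and 0.580 in IRF3-2D, lower without overlap by 0.18 on the log2 scale (exact permutation p = 0.1). Foxo1 encodes the FOXO factor best known for control of glucose release, and its ratio to Foxo3 was 1.07, 1.13 and 0.910 in Ctrl and 1.25, 1.23 and 1.17 in IRF3-2D. That ratio was higher without overlap by 0.24 on the log2 scale (exact permutation p = 0.1). Foxo1 alone was not called (log2 fold change -0.21, adjusted p = 0.150 by edgeR, and 0.25 with library totals alone, not called either).

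**Figure D3:**
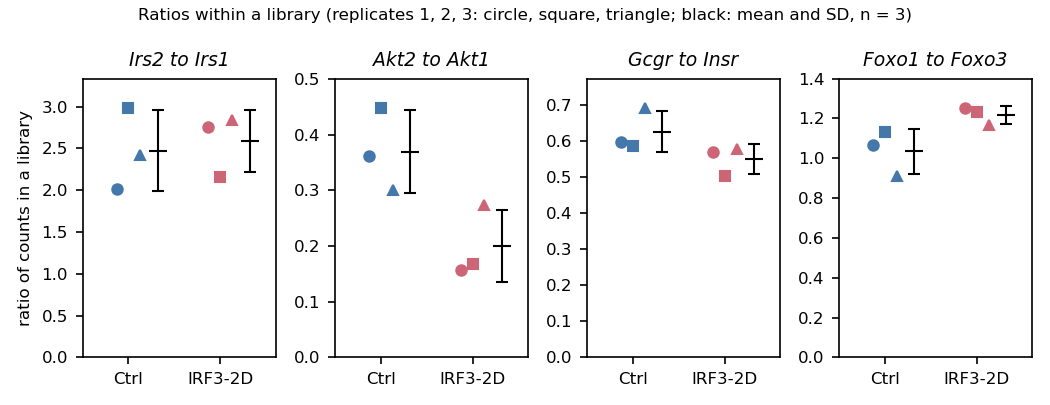
Ratio of the counts of 2 genes in the same library (y axis, linear, from 0) for 4 gene pairs in the 3 Ctrl and the 3 IRF3-2D libraries (x axis). Circles, squares and triangles are replicates 1, 2 and 3, and the black bar is the mean with its SD. Akt2 to Akt1 and Gcgr to Insr are lower and Foxo1 to Foxo3 higher in all 3 IRF3-2D libraries, and Irs2 to Irs1 overlaps.

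To set different genes side by side, counted levels were divided by transcript length. Gcgr led in Ctrl liver with 88.5 ± 4.34 CPM per kb (SD, n = 3), followed by Insr with 55.3 ± 3.96. Akt1 (41.3 ± 3.42) and Foxo3 (35.4 ± 4.53) came next, with values that overlapped, and then Trib1 (16.3 ± 3.61) and Akt2 (12.6 ± 3.43), which overlapped too. Irs2 stood at 6.58 ± 2.35 and lay under Akt2 in every Ctrl library. Pik3r1 (2.57 ± 0.648) and Irs1 (1.80 ± 0.324) were the lowest and overlapped. In IRF3-2D liver the first 5 places were the same, but Irs2 (11.5 ± 1.49 CPM per kb) now lay above Akt2 (6.06 ± 1.59), and Irs1 (3.14 ± 0.770) above Pik3r1 (1.02 ± 0.513), in both cases without overlap. Trib1 (14.1 ± 3.77) and Irs2 overlapped there. These levels rest on the mean length of the annotated coding transcripts, so they carry an error where a gene has several, as Akt2 does with 11. The table may also not count all of a gene's RNA, and the reads of Akt2 are less surely placed. The order of genes therefore holds for counted RNA only.

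The rest of the pathway was read from 14 lists of textbook genes that overlap in part. They hold 159 genes, of which 32 were not tested, among them Gsk3a and Pik3cb with 0 counts in every library and Rptor with at most 2. Cells of every type use such genes, so the table may not count all of a gene's RNA. Of 118 tested genes other than the 9, 9 were called higher and 31 lower, or 33.9% where 26.3% of all tested genes were called, with a median log2 fold change of -0.21 beside 0.03 for all tested genes. Library totals alone gave 36 higher and 18 lower, and the medians were 0.25 and 0.49. Without both libraries richest in pancreatic RNA 4 were higher and 19 lower, and without IRF3-2D replicate 1 or 2 the number called higher was 5. The genes named below are, by rule, up to 4 called genes of each list, 33 in all. Of these, 16 kept their call under each of 15 alternatives and 15 lost it without both libraries richest in pancreatic RNA, among them each gene for which a lost call is given below except Inppl1 and Cop1.

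**Figure D4:**
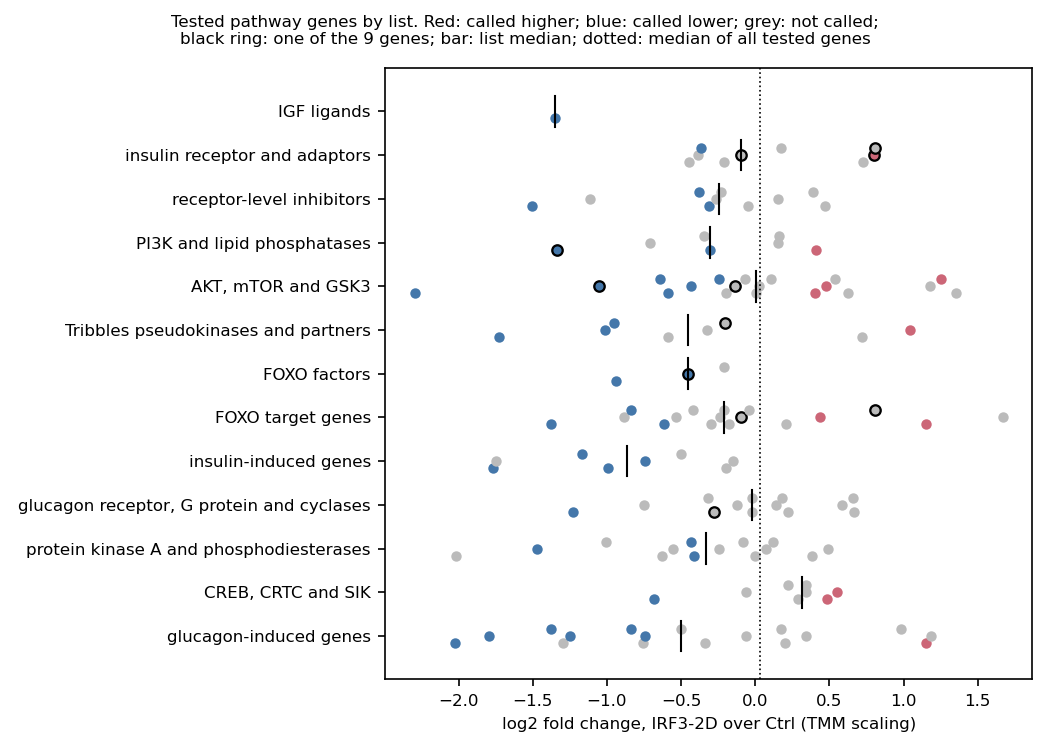
Log2 fold change, IRF3-2D over Ctrl with TMM scaling (x axis), of each tested gene on 13 pathway lists with a tested gene (y axis). Red points were called higher, blue points lower and grey points not called, rings mark the 9 genes, bars the list medians and the dotted line the median of all tested genes. Blue points outnumber red ones among glucagon-induced and insulin-induced genes, while the list of CREB, CRTC and SIK genes has its median on the right.

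At the level of ligand, receptor and adaptor, Igf1, the liver-made growth factor, stood at 177 ± 17.1 CPM in Ctrl and fell 2.55-fold to 69.3 ± 8.04 CPM (SD, n = 3; adjusted p = 0.000413 by edgeR). Of 9 tested receptor and adaptor genes 1 was called higher, Irs1, and 1 lower. That is 22.2%, under the 26.3% of all tested genes that were called. Library totals alone gave 5 higher and none lower. The gene called lower was Sos1, an exchange factor for RAS (log2 fold change -0.37, but 0.09 with library totals alone). Its call was lost when Ctrl replicate 2 (-0.32) or IRF3-2D replicate 1 or 2 (-0.31 and -0.38) was dropped. Of 10 tested inhibitors that act on the receptor or its substrates 3 were called lower and none higher (30%, near the 26.3%). Library totals alone gave 3 higher and 1 lower, and dropping 1 library left 1 or 2 lower. Enpp1, a membrane enzyme known to hinder the insulin receptor, stood at 27.3 ± 3.83 CPM and fell 2.84-fold to 9.64 ± 2.12 CPM (SD, n = 3; adjusted p = 0.00175 by edgeR) and kept its call under every alternative tried. The kinase gene Prkce (-0.38, but 0.07 with library totals alone) lost its call with no filter (-0.37) and when any 1 of the 6 libraries was dropped (-0.43 to -0.30). The phosphatase gene Ptpn11 (-0.31, but 0.14 with library totals alone) lost it with no filter (-0.31) and when any 1 except Ctrl replicate 1 was dropped (-0.36 to -0.26).

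Of 7 tested genes of phosphoinositide 3-kinase and its lipid phosphatases, 2 were called lower and 1 higher. That is 42.9%, where 26.3% of all tested genes were called. Library totals alone gave 3 higher and none lower, and dropping 1 library left 0 to 2 lower. Pik3ca, the catalytic subunit (log2 fold change -0.30, but 0.15 with library totals alone), was lower beside Pik3r1. Inppl1, which encodes the lipid phosphatase SHIP2, was 1.33-fold higher (0.41, adjusted p = 0.0485 by edgeR). The call of Pik3ca was lost when any 1 library except Ctrl replicate 1 was dropped (-0.33 to -0.28). That of Inppl1 was lost with DESeq2 (0.38), limma-voom (0.41), RLE scaling (0.38), no filter (0.42) and when any 1 library except Ctrl replicate 2 was dropped (0.33 to 0.48). Of 19 tested genes of AKT, mTOR and GSK3, 6 were called lower and 3 higher (47.4%). Library totals alone gave 8 higher and 1 lower, and dropping 1 library left 2 to 5 lower and 1 to 3 higher. Deptor, an inhibitor of mTOR, fell 4.91-fold, from 437, 566 and 507 CPM in Ctrl to 102, 99.2 and 106 CPM in IRF3-2D (adjusted p = 4.41e-05 by edgeR), and kept its call under every alternative tried. The IRF3-2D values of Deptor lay within a few CPM of each other and far under the lowest Ctrl library. The AKT phosphatases moved apart: Phlpp1 fell 1.56-fold (adjusted p = 0.00550 by edgeR; not called with library totals alone, -0.19), while Phlpp2 rose 2.38-fold (adjusted p = 0.00617 by edgeR) and kept its call under every alternative tried. Eif4ebp1, a repressor of translation controlled by mTOR, fell 1.51-fold, a call lost with library totals alone (-0.14) and when Ctrl replicate 3 (-0.53) or IRF3-2D replicate 1 or 2 (-0.57 and -0.52) was dropped. The remaining calls, named after their values were seen, were Rictor (0.47) and Rheb (0.40), which were higher, and Mtor (-0.43, but 0.03 with library totals alone) and Tsc2 (-0.24, but 0.21), which were lower. Each of these 4 was lost when 1 of several libraries was dropped, Ctrl replicate 2 among them (0.42, 0.39, -0.43 and -0.25), and without both libraries richest in pancreatic RNA (0.48, 0.34, -0.38 and -0.24).

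Around Trib1, 3 of 8 tested genes were called lower and 1 higher. That is 50%, where 26.3% of all tested genes were called. Library totals alone gave 2 lower and 1 higher. Trib3, a relative that binds AKT, stood at 30.0 ± 4.94 CPM and fell 3.31-fold to 9.03 ± 3.72 CPM (SD, n = 3; adjusted p = 0.00499 by edgeR). Cop1, the ligase that TRIB1 recruits, fell 1.93-fold (adjusted p = 0.0229 by edgeR), a call lost with library totals alone (-0.50) and when Ctrl replicate 1 or 3 (-0.78 and -1.01) or IRF3-2D replicate 2 or 3 (-0.88 and -0.83) was dropped. Cebpa, whose protein is the target of that pair, stood at 21.8 ± 6.02 CPM and rose 2.07-fold to 45.1 ± 8.98 CPM (SD, n = 3; adjusted p = 0.0139 by edgeR), a call lost without IRF3-2D replicate 1 (1.02). Mlxipl, the glucose-sensing factor ChREBP, fell 2.02-fold (adjusted p = 0.00114 by edgeR). Of 3 tested FOXO genes 2 were called lower (66.7%), and library totals alone gave 1. Beside Foxo3, Foxo4 stood at 38.2 ± 3.43 CPM and fell 1.91-fold to 19.9 ± 2.49 CPM (SD, n = 3; adjusted p = 0.00205 by edgeR). The call of Foxo4 held under every alternative tried.

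Called FOXO targets lay in both directions, and called insulin-induced genes were all lower with TMM scaling. Of 17 tested FOXO targets 3 were called lower and 2 higher, with a median log2 fold change of -0.21. That is 29.4%, near the 26.3% of all tested genes that were called. Library totals alone gave 2 lower and 4 higher. G6pc and Pck1, enzymes of glucose release, fell 2.59-fold and 1.79-fold (adjusted p = 0.000358 and 0.00173 by edgeR), and Igfbp1, a secreted IGF carrier named after its values were seen, fell 1.53-fold (adjusted p = 0.0181 by edgeR). The call of Igfbp1 was lost with library totals alone (-0.16), when Ctrl replicate 2 (-0.57) or IRF3-2D replicate 1 or 3 (-0.63 and -0.57) was dropped and without both libraries richest in pancreatic RNA (-0.58), and that of Pck1 without both (-0.79). The coactivator gene Ppargc1a stood at 43.2 ± 7.16 CPM and rose 2.22-fold to 95.8 ± 4.42 CPM (SD, n = 3; adjusted p = 0.00105 by edgeR). Apoc3 rose 1.36-fold (adjusted p = 0.0142 by edgeR), a call lost without IRF3-2D replicate 1 (0.43). Of 8 tested insulin-induced genes 4 were called lower and none higher (50%), with a median of -0.87. Library totals alone gave 4 lower and 1 higher. Scd1, Fasn, Acly and Srebf1, genes of fatty acid synthesis and its regulator, fell 3.40-fold, 2.25-fold, 1.99-fold and 1.67-fold (adjusted p = 0.00184, 0.000720, 0.000913 and 0.00346 by edgeR). Of these, Srebf1 lost its call without both libraries richest in pancreatic RNA (-0.71).

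The windows of Igfbp1 and G6pc are shown for comparison with the substrates, since both hold the same TGTTTTG. They are the 250 bases before each RefSeq start on the plus strand, Igfbp1 at chr11:7197537-7197786 and G6pc at chr11:101367466-101367715 (GRCm38.p6). Capitals mark TGTTTTG or, on the other strand, CAAAACA.
Igfbp1: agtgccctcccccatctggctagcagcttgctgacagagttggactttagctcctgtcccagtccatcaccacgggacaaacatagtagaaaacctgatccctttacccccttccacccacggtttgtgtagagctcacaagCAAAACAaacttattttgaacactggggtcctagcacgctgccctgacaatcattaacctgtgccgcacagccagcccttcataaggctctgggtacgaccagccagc
G6pc: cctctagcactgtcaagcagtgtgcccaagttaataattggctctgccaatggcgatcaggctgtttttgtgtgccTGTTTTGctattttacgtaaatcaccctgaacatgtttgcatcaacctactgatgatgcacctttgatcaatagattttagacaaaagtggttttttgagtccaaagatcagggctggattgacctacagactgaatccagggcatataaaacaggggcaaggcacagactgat
The match starts 108 bases before the start site in Igfbp1 and 174 in G6pc. Neither window holds an E-box. Whether any of these motifs bears on the level of a transcript was not tested.

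On the glucagon side, 1 of 13 tested genes of the receptor, its G protein and the adenylyl cyclases was called lower and none higher. That is 7.69%, under the 26.3% of all tested genes that were called. Library totals alone gave 1 lower and 4 higher. The gene called lower was Adcy6, a cyclase that makes cyclic AMP. Adcy6 stood at 26.1 ± 5.67 CPM and fell 2.34-fold to 11.2 ± 2.01 CPM (SD, n = 3; adjusted p = 0.00496 by edgeR) and kept its call under every alternative tried. Of 14 tested genes of protein kinase A and the phosphodiesterases 3 were called lower and none higher (21.4%, also under 26.3%). With library totals alone 1 was lower and 4 were higher. The anchoring protein gene Akap1 fell 2.77-fold (adjusted p = 0.00669 by edgeR). The phosphodiesterase gene Pde8a (log2 fold change -0.41) and the catalytic subunit gene Prkacb (-0.43) were lower, but stood at 0.04 and 0.02 with library totals alone. The call of Prkacb was also lost with no filter (-0.43) and when Ctrl replicate 2 or 3 (-0.36 and -0.42) or IRF3-2D replicate 1 or 2 (-0.34 and -0.47) was dropped. Of 8 tested genes of CREB, its coactivators and the SIK kinases 2 were called higher and 1 lower (37.5%), with a median of 0.31. Library totals alone gave 6 higher and none lower. Creb1 (at most 12 counts in a library), Atf1, Crtc2, Ep300 and Stk11 of this list were not tested, so the median does not cover CREB itself. Crtc3, a CREB coactivator, was 1.46-fold higher, a call lost when Ctrl replicate 3 (0.53) or IRF3-2D replicate 2 or 3 (0.49 and 0.52) was dropped. Crebbp, an acetyltransferase that binds CREB, was 1.40-fold higher, a call lost when any 1 library except Ctrl replicate 1 was dropped (0.40 to 0.54) and with upper-quartile scaling (0.46). Creb3l3, a liver CREB relative, fell 1.60-fold (adjusted p = 0.00885 by edgeR; not called with library totals alone, -0.23).

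Of 17 tested glucagon-induced genes 6 were called lower and 1 higher, with a median of -0.50. That is 41.2%, where 26.3% of all tested genes were called. Library totals alone gave 6 lower and 5 higher. Ppp1r3c, which targets a phosphatase to glycogen, stood at 316 ± 37.0 CPM and fell 4.07-fold to 77.7 ± 20.4 CPM (SD, n = 3; adjusted p = 0.000579 by edgeR). Tat, an enzyme of tyrosine breakdown, stood at 24.7 ± 3.78 CPM and fell 3.47-fold to 7.09 ± 0.974 CPM (SD, n = 3; adjusted p = 0.000569 by edgeR). The one called higher was Ppargc1a. Pck1 stands on both lists, and its window is shown because it carries the short CREB site known from studies of cyclic AMP. It lies at chr2:173152823-173153072 on the plus strand (GRCm38.p6), and capitals mark the site, TGACG read on the other strand, which starts 90 bases before the start site.
Pck1: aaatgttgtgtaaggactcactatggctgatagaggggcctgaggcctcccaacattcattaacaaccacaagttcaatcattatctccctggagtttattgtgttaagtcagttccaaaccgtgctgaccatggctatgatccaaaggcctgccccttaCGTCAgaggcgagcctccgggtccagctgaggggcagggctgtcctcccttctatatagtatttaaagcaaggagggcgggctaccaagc
Over the 6 libraries, the genes whose log2 CPM followed that of Foxo3 most closely, Foxo3 being the one of the 9 with the smallest adjusted p, were Nacc2 (Pearson r = 0.996), Slc39a14 (0.995) and Qtrt1 (0.992). The points share the group difference and the scaling. Nacc2 and Slc39a14 were called lower (log2 fold change -0.77 and -0.71, not called with library totals alone at -0.31 and -0.25) and Qtrt1 was not (-0.56, adjusted p = 0.187 by edgeR).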

How the data were processed

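Poly-A RNA of 6 liver samples went into strand-specific libraries, per the labels' protocols. The deposited values are estimated counts per gene, not normalized. Per the submitters' processing notes, Salmon 1.2.1 was a tool and GRCm38 and mm10 were builds, with no role stated. How transcripts were summed to genes, and with which annotation, is not given in the sources used here. Every deposited value was already a whole number, so no rounding was done here. Whether values were rounded before deposit is not given in the sources used here. Groups came from sample titles, columns from library names. Of 20894 identifiers, 20817 had a symbol in GENCODE M21.

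Genes were kept by filterByExpr and tested with edgeR 4.0.16 (R 4.3.3): quasi-likelihood F-test, TMM scaling, group as the only term, Benjamini-Hochberg over all tested genes, threshold 0.05. The test was also tried on simulated counts, whose outcome is not given here and is not used as support. Alternatives used DESeq2 1.42.0, limma-voom (limma 3.58.1), other scalings, filters, a replicate block and left-out libraries. The 31-base words came from GENCODE M21 transcripts, promoters from RefSeq. Libraries of 1 group differed by more than sampling noise (chi-square per degree of freedom 18.9 to 110). The 9 genes and the lists were chosen with earlier results of these data known. Named from each list were up to 4 called genes with the smallest adjusted p, and other genes are said to be named after their values were seen. CACGTG and TGTTTTG were searched after the sequences were seen. A few genes are not reported here and stand on no list.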

Additional observations from a re-analysis of the deposited data

How the results depend on the processing

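With library totals alone the log2 fold changes were 0.36 for Insr, 0.32 for Akt1, 0.0052 for Foxo3, 0.17 for Gcgr and 0.25 for Trib1, all of opposite sign to TMM scaling, 1.27 for Irs2 (called), and -0.89 for Pik3r1 and -0.60 for Akt2 (both not called). The signs of Sos1 (0.087), Prkce (0.073), Ptpn11 (0.14), Pik3ca (0.15), Pde8a (0.042), Prkacb (0.022), Foxo1 (0.25), Mtor (0.027) and Tsc2 (0.21) turned too. All tested genes then gave 4497 higher and 571 lower calls, and the pathway lists without the 9 genes 36 and 18. Irs2 was called with DESeq2 (0.78), limma-voom (0.86) and a mean count of at least 50 (0.80), and Gcgr with DESeq2 (-0.31). Pik3r1 was not called with no filter on low counts (-1.32).

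Replicate numbers did not pair the samples: deviations of same-numbered libraries from their group means correlated at 0.10, -0.03 and 0.04. With a replicate block, Pik3r1 (-1.40) and Akt2 (-1.05) were not called (adjusted p = 0.0555 and 0.0593 by edgeR), nor were Sos1, Prkce, Ptpn11, Pik3ca, Tsc2, Crtc3, Crebbp, Rictor and Rheb of the list genes named, and the lists gave 5 higher and 27 lower calls.

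Leaving out 1 library at a time gave log2 fold changes of -0.15 to -0.04 for Insr, 0.61 to 0.95 for Irs1, 0.56 to 1.08 for Irs2, -1.83 to -1.09 for Pik3r1, -0.19 to -0.08 for Akt1, -1.30 to -0.81 for Akt2, -0.54 to -0.36 for Foxo3, -0.37 to -0.22 for Gcgr and -0.36 to 0.00336 for Trib1, which turned without IRF3-2D replicate 2. Calls over all tested genes were 851 to 1312 higher and 920 to 1363 lower, and on the lists 5 to 8 higher and 23 to 31 lower. The Irs2 to Irs1 ratio differed by -0.066 to 0.22 and turned without Ctrl replicate 1 (-0.066) and without IRF3-2D replicate 3 (-7.61e-05).

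Without both Ctrl replicate 2 and IRF3-2D replicate 1, chosen after seeing the data, values were 0.00613 for Insr, 0.91 for Irs1, -1.07 for Pik3r1, -0.69 for Akt2 and -0.42 for Foxo3, none called. All tested genes then gave 571 higher and 582 lower calls and the lists 4 and 19. Fewer samples were tested in these fits.

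Precision is limited by 3 samples a group and, for Pik3r1, by 27 to 105 counts a library.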
